A study of Mus musculus with 2 samples.

Results

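The circadian clock genes examined here were 10 genes of the transcriptional loop that keeps daily time in most mammalian cells: Arntl, Npas2, Clock, Cry1, Per1, Per2, Per3, Nr1d1, Nr1d2 and Dbp. They were chosen by symbol, and all 10 were found once each among the 31053 genes of the count tables. The 2 libraries of single cells were compared, both from Apoe-/- male C57BL/6 mice, which lack apolipoprotein E and accumulate cholesterol in plasma, killed at 16 weeks of age. The mice of the ND library ate a normal diet and those of the HFD library a high-fat, high-cholesterol diet for 12 weeks. Each library held the pooled aortic cells of 2 mice, digested at 37 °C with an enzyme kit made for lung, so there was 1 library per diet and no spread between animals could be measured. No test of a diet effect was therefore possible. The diet, the pool of mice and the library cannot be told apart, and neither the labels nor the methods state at what hour the mice were killed. The list was drawn up with the difference of some of these genes between the libraries already known, so every value below is a description.

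In the clock loop, ARNTL (also called BMAL1) pairs with CLOCK or with NPAS2, and the pair binds DNA at E-boxes and activates its targets. Among these targets are the Per and Cry genes, whose proteins return to the nucleus and repress the pair, the Nr1d genes, which encode the haem-binding repressors REV-ERB alpha and beta, and Dbp, a transcription factor of the PAR bZIP family that activates genes with D-boxes such as Per3. The REV-ERB proteins repress Arntl, Npas2 and Cry1 through elements called ROREs. In most tissues Dbp and Nr1d1 RNA therefore peak at nearly the opposite time of day from Arntl and Npas2 RNA, and the level of a clock gene in a single sample depends on when it was taken.

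The letters of these elements were looked for in the promoter windows of RefSeq on GRCm38.p6, 250 bases before a start site and 50 after it. A window was found for 9 of the 10 genes, Per2 being the exception, and 4 genes held a match. An E-box, CACGTG, stood in 7.15% of all 32851 windows, a D-box written as TTATGTAA in 0.938%, and a RORE core written as TAGGTCA or TGGGTCA in 6.45%, each counted on both strands. The sequences below carry the matches, in capitals, because these are the elements through which the proteins of the loop act on one another's genes, and all 4 genes are compared below. A match is a description of the letters and not evidence of binding, and for the genes without one it says only that these letters are not in this window.
Per1 upstream of a RefSeq start site, chr11:69098699-69098947, plus strand, E-box beginning 166 bases before the start: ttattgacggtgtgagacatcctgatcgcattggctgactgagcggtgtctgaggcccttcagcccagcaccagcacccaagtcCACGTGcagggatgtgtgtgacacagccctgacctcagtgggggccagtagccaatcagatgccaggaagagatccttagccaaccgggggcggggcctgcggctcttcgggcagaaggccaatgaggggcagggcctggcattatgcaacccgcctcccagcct
Cry1 upstream of the start, chr10:85185065-85185304, minus strand, E-box beginning 60 bases before the start: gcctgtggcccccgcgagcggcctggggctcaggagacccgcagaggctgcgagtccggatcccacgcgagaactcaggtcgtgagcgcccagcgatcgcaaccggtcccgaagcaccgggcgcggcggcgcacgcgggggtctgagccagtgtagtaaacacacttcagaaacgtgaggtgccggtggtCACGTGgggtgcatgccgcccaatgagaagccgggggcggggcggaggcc
Per3 upstream of the start, chr4:151044666-151044915, minus strand, D-boxes beginning 205 and 158 bases before the start: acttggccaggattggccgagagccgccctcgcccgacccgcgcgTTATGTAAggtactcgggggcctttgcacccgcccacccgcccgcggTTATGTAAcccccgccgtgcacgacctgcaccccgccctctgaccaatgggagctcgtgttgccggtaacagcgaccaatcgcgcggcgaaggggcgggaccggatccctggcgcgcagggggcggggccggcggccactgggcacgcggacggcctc
Arntl in the transcribed part just after the start, chr7:113207530-113207559, plus strand, RORE core: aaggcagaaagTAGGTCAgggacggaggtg
Only 30 bases are shown for Arntl, since the match lies in an exon.

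The values are counts of unique molecular identifiers (UMIs), each marking 1 captured RNA molecule near its 3′ end, and levels are counts per 1e6 UMIs (CPM), with UMIs summed over the cells of a class. After filtering, the ND library kept 5416 cells with 27137322 UMIs and the HFD library 2739 cells with 17191279. The mitochondrial share had a median of 16.8% in ND cells and 21.9% in HFD cells. Cells were assigned to classes by UMIs of marker genes, none of them a clock gene, and 85.8% of ND and 83.6% of HFD cells received a class. There were 2344 ND and 1194 HFD endothelial cells, 1037 and 443 fibroblasts and 359 and 525 macrophages. Lymphocytes were very unequal, with 403 ND and 6 HFD B cells and 220 ND and 24 HFD T cells. Smooth muscle cells, the main cells of the aortic wall, were only 29 and 5, and 67 ND cells but 0 HFD cells carried markers of club cells, an airway epithelium. Haemoglobin genes held 0.391% of ND and 2.66% of HFD UMIs. The 95% intervals given below are exact and cover counting error only. A gene counted as higher or lower where its HFD/ND ratio was 2-fold or more in either direction and it had at least 20 UMIs over both libraries.

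In fibroblasts of the HFD library Dbp, Nr1d1 and Nr1d2 were 6.48- to 8.85-fold higher than in ND, while Arntl, Npas2, Cry1 and Per2 were lower by at least 3-fold. Of the 10 genes, 3 were higher and 4 lower, beside 2.01% and 7.63% of all 11142 genes with enough UMIs. Dbp gave 20 UMIs in ND fibroblasts (4.69 CPM, 2.87 to 7.25) and 85 in HFD (40.1 CPM, 32.0 to 49.5), a ratio of 8.53 (5.19 to 14.7). No ND fibroblast held more than 1 Dbp UMI, and the highest HFD fibroblast held 5. Nr1d1, the gene of REV-ERB alpha, gave 32 UMIs in ND (7.51 CPM) and 141 in HFD (66.4 CPM), a ratio of 8.85 (5.99 to 13.4). Nr1d2, the gene of REV-ERB beta, gave 44 and 142 UMIs, or 10.3 and 66.9 CPM, a ratio of 6.48 (4.59 to 9.30). The intervals of the levels did not overlap between the libraries for any of these 3 genes.

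The activators and Cry1 were lower in the HFD fibroblasts. Arntl was counted 225 times in ND (52.8 CPM, 46.1 to 60.2) and 28 times in HFD (13.2 CPM, 8.77 to 19.1), a ratio of 0.25 (0.162 to 0.371). Npas2, the partner that can stand in for CLOCK, gave 152 and 24 UMIs and a ratio of 0.317 (0.197 to 0.490). Cry1 had the lowest ratio of all, with 109 UMIs in ND (25.6 CPM, 21.0 to 30.9) and 4 in HFD (1.88 CPM, 0.514 to 4.83), which gave 0.0737 (0.0197 to 0.194). Clock itself differed less, with a ratio of 0.592 (0.475 to 0.732). The 3 Per genes did not move together in fibroblasts. Per2 gave 85 and 14 UMIs, a ratio of 0.331 (0.173 to 0.586), Per1 had a ratio of 0.783 (0.645 to 0.948), and Per3, known as a D-box gene, was higher in HFD at 1.77 (1.22 to 2.55).

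**Figure D1:**
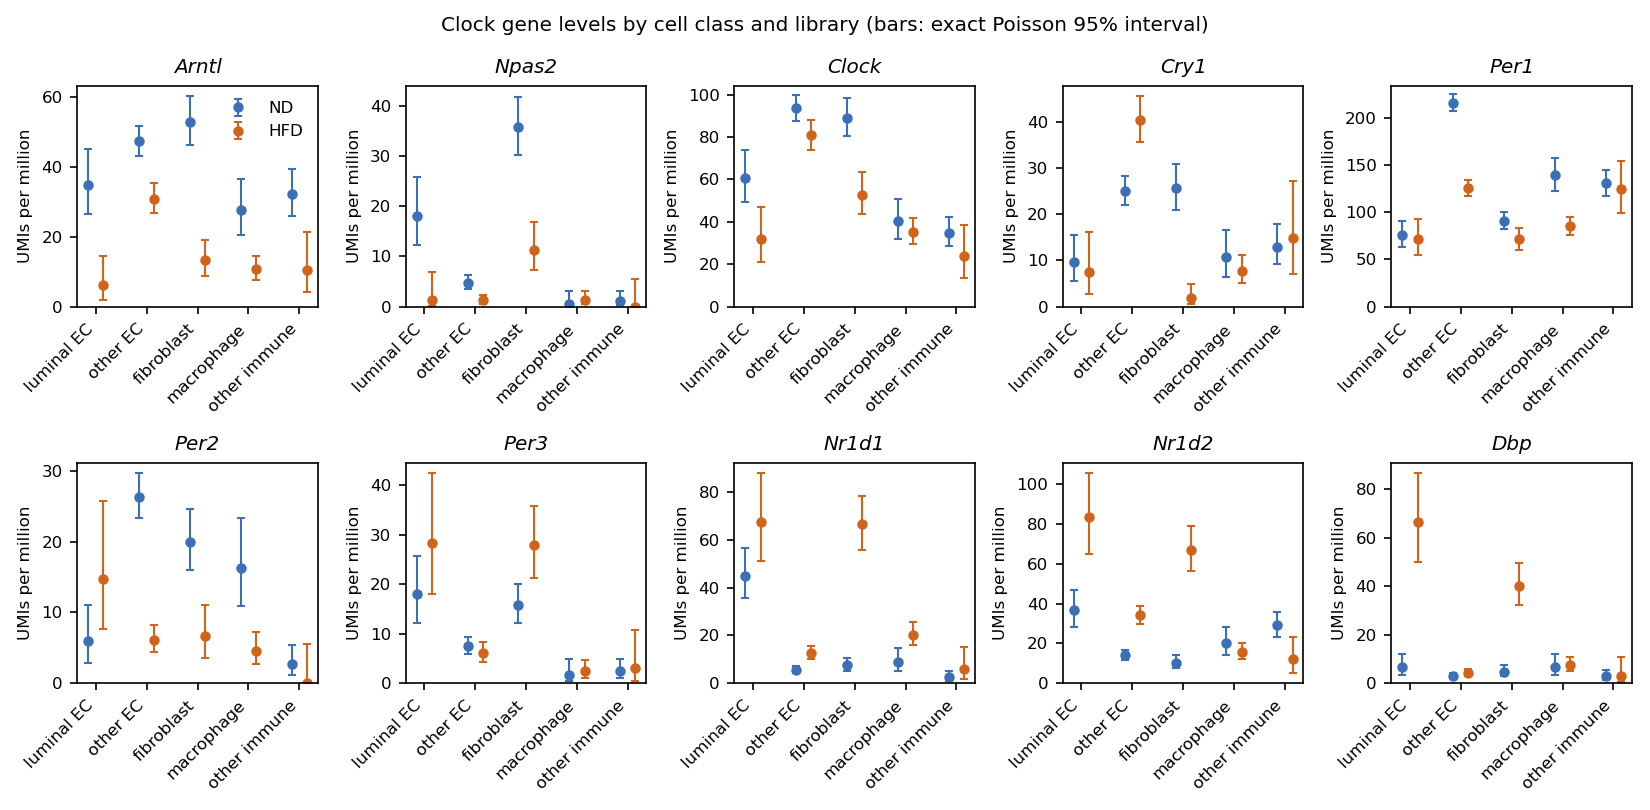
Levels of the 10 clock genes in CPM (vertical axes, each from 0) in luminal endothelial cells, all other endothelial cells (EC), fibroblasts, macrophages and all other immune cells summed, in the ND (blue) and HFD (orange) libraries, with exact Poisson 95% intervals. Dbp stood at 66.4 and 40.1 CPM in HFD luminal endothelial cells and fibroblasts and at 4.08 CPM in the other HFD endothelial cells.

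Fibroblast subtypes, gated by Pi16, Fmod, Inmt or Cxcl14 and related genes, had more Dbp, Nr1d1 and Nr1d2 per UMI in HFD, some of them on few UMIs, and lower Arntl and Npas2 levels were not seen in all of them. In the 542 ND and 288 HFD Pi16 fibroblasts, Dbp was 5.14-fold (2.88 to 9.68), Nr1d1 14.6-fold (7.33 to 33.2) and Nr1d2 8.23-fold (5.06 to 14.1) the ND level. In the same cells Arntl gave 129 UMIs in ND and 17 in HFD, a ratio of 0.217 (0.123 to 0.361), and Cry1 gave 67 and 1. Here 3 of the 10 genes were higher and 4 lower, beside 1.91% and 6.62% of 9906 genes. In Inmt fibroblasts, 175 in ND and 66 in HFD, Nr1d1 gave 6 and 22 UMIs, a ratio of 9.93 (3.90 to 29.9), and Per3 10 and 12, a ratio of 3.25 (1.29 to 8.40). With Nr1d2 these made 3 of 7 genes higher and 0 lower, beside 3.38% and 13.1% of 5711 genes. Arntl there gave 28 and 7 UMIs and a ratio of 0.677 with an interval from 0.25 to 1.59. Npas2 at 0.752 (0.218 to 2.10) and Clock at 0.739 (0.387 to 1.33) also had intervals that include 1. Only 16 HFD fibroblasts fell in the Fmod gate, and in them Dbp gave 9 UMIs against 0 in 142 ND cells. Arntl and Npas2, with 29 and 38 UMIs in the ND Fmod cells, were at 0 in the HFD ones. These HFD cells also carried smooth muscle markers at 4464 CPM against 347 in ND, and 12.5% against 4.93% of them were among the highest doublet scores, and the part of this in their clock gene values was not tested. The Cxcl14 gate held 17 ND and 30 HFD cells, with no UMI of Dbp, Nr1d1 or Nr1d2 in ND and 6, 13 and 11 in HFD. Arntl in them gave 1 and 2 UMIs and Npas2 2 and 3.

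Endothelial cells taken as 1 class gave a mixed picture. Of the 10 genes, 2 were higher (Dbp and Nr1d2) and 2 lower (Per2 and Npas2), beside 1.88% and 8.94% of 12431 genes. Dbp had 42 UMIs in ND (3.54 CPM) and 81 in HFD (10.9 CPM), a ratio of 3.08 (2.10 to 4.59). This ratio came from a small group of cells. Luminal endothelial cells, gated by Cytl1, Vcam1 and Vwf (the last encoding von Willebrand factor), made up 9.09% of ND and 7.79% of HFD endothelial cells, or 213 and 93 cells. They held 54 of the 81 Dbp UMIs of HFD endothelial cells.

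In luminal cells Dbp rested on 11 UMIs in ND (6.61 CPM) and 54 in HFD (66.4 CPM), a ratio of 10.1 (5.20 to 21.3). In all other endothelial cells together it gave 31 UMIs in ND (3.04 CPM) and 27 in HFD (4.08 CPM), a ratio of 1.34 (0.771 to 2.33). The intervals of these ratios do not overlap. Within the HFD library, a comparison that needs no scaling between libraries, Dbp in luminal cells was above its level in every other endothelial gate with 50 cells or more, where it lay between 2.34 and 4.90 CPM. Arteriolar cells, gated by Stc1, Hey1 and Sema3g, had 7 Dbp UMIs in ND and 6 in HFD. Capillary cells with Gpihbp1 and without Cxcl9, the largest gate, had 8 and 16, a ratio of 1.34 (0.543 to 3.63), while Nr1d1 in them gave 5 and 37, a ratio of 4.97 (1.95 to 16.2). In those capillary cells 2 of 9 genes were higher and 1 lower, beside 3.36% and 7.11% of 9558 genes.

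The other clock genes of luminal cells differed from those of the remaining endothelial cells in some cases and not in others. Arntl gave 58 UMIs in ND luminal cells (34.8 CPM) and 5 in HFD (6.15 CPM), a ratio of 0.177 (0.0553 to 0.436), against 482 and 203 UMIs and 0.649 (0.549 to 0.767) in the other endothelial cells. Npas2 gave 30 UMIs and 1. Clock had a ratio of 0.527 (0.329 to 0.818) in luminal cells and 0.862 (0.774 to 0.960) elsewhere in the endothelium, against 0.592 in fibroblasts. Nr1d1 differed from fibroblasts, because ND luminal cells already carried 75 UMIs of it (45 CPM, against 7.51 in ND fibroblasts). With 55 UMIs in HFD luminal cells (67.6 CPM) its ratio there was 1.5 (1.04 to 2.16). Nr1d2 was 2.28-fold (1.59 to 3.28) in luminal and 2.44-fold (1.97 to 3.04) in other endothelial cells, values whose intervals overlap. In the other endothelial cells Nr1d1 gave 56 and 82 UMIs, a ratio of 2.26 (1.59 to 3.23). In luminal cells 3 genes were higher (Dbp, Nr1d2 and Per2) and 2 lower (Arntl and Npas2), beside 2.93% and 6.11% of 8902 genes. The interval of Per2 there, 0.973 to 6.35, includes 1. In the other endothelial cells 2 were higher (Nr1d1 and Nr1d2) and 2 lower (Per2 and Npas2), beside 2.4% and 9.76% of 11895.

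**Figure D2:**
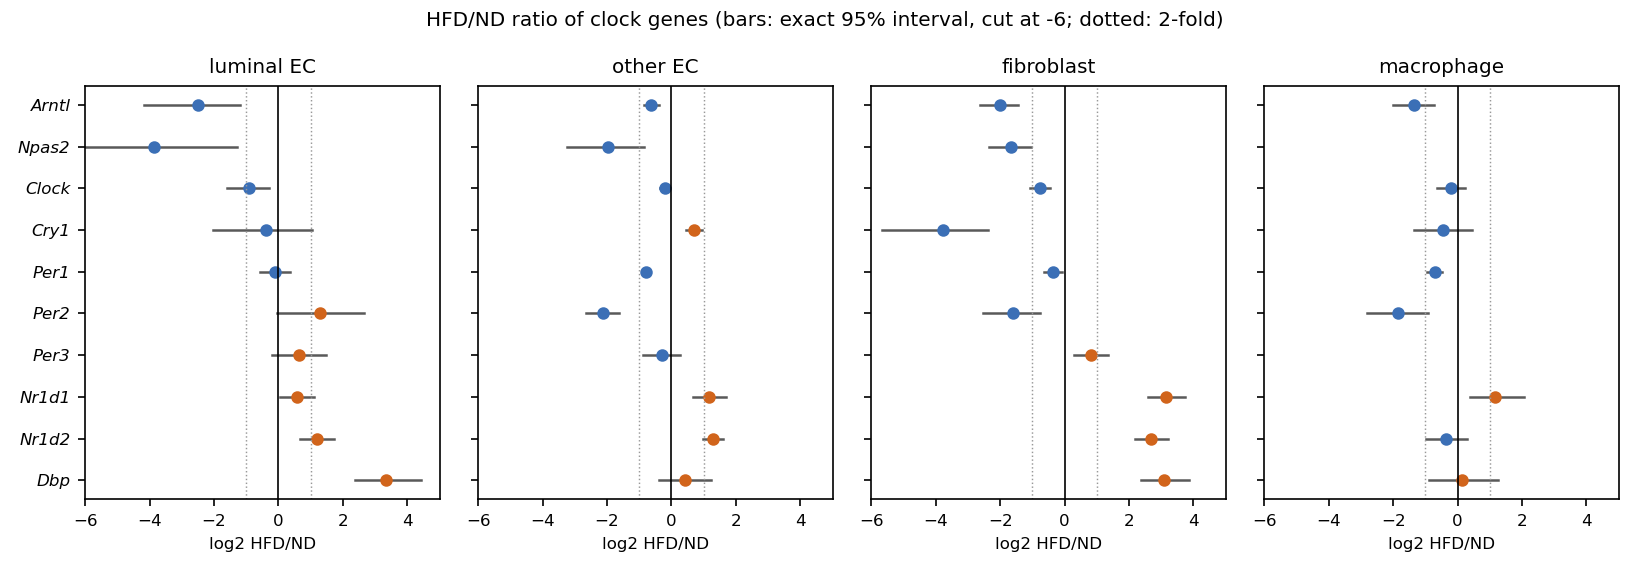
HFD/ND ratio on the log2 scale (horizontal axes) for the 10 clock genes in 4 populations, with exact 95% intervals and dotted lines at 2-fold, and with genes under 20 UMIs left out. Dbp lies at 3.33 in luminal endothelial cells and 3.09 in fibroblasts but at 0.43 in the other endothelial cells, and Cry1 lies at -3.76 in fibroblasts and 0.69 in those endothelial cells.

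Cry1, the gene of a repressor, ran in opposite directions between these populations. It was counted 255 times in ND (25.0 CPM) and 267 times in HFD (40.4 CPM) in endothelial cells other than luminal ones, a ratio of 1.61 (1.35 to 1.92), whereas fibroblasts had the ratio of 0.0737 given above. Among endothelial gates the Cry1 ratio was 1.78 (1.27 to 2.52) in arteriolar cells, 1.62 (1.17 to 2.28) in capillary cells without Cxcl9 and 1.11 (0.571 to 1.99) in those with Cxcl9. Luminal cells had 16 and 6 Cry1 UMIs, a ratio of 0.768 (0.246 to 2.07) that does not place them with either side. Per2 was lower in the non-luminal endothelium, as in fibroblasts, at 269 UMIs in ND and 40 in HFD and a ratio of 0.229 (0.160 to 0.321). In luminal cells it gave 10 and 12 UMIs, a ratio of 2.46 (0.973 to 6.35), with an interval that includes 1. The ND level of Per2 was also lower in luminal cells, 6.00 CPM (2.88 to 11.04), than in other ND endothelial cells, 26.4 CPM (23.3 to 29.7).

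Per1, which is induced by many stimuli besides the clock, had the most UMIs of the 10 genes and a distribution of its own. In ND it stood at 216 CPM in non-luminal endothelial cells (207 to 225), 76.3 CPM in luminal cells (63.6 to 90.7) and 90.8 CPM in fibroblasts (82.0 to 100.4). In HFD the corresponding levels were 125, 71.3 and 71.1 CPM. Its ratio was thus 0.580 (0.535 to 0.628) in the non-luminal endothelium and 0.935 (0.674 to 1.29) in luminal cells. Per3 had intervals that include 1 in both, at 0.812 (0.539 to 1.21) and 1.57 (0.871 to 2.80).

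**Figure D3:**
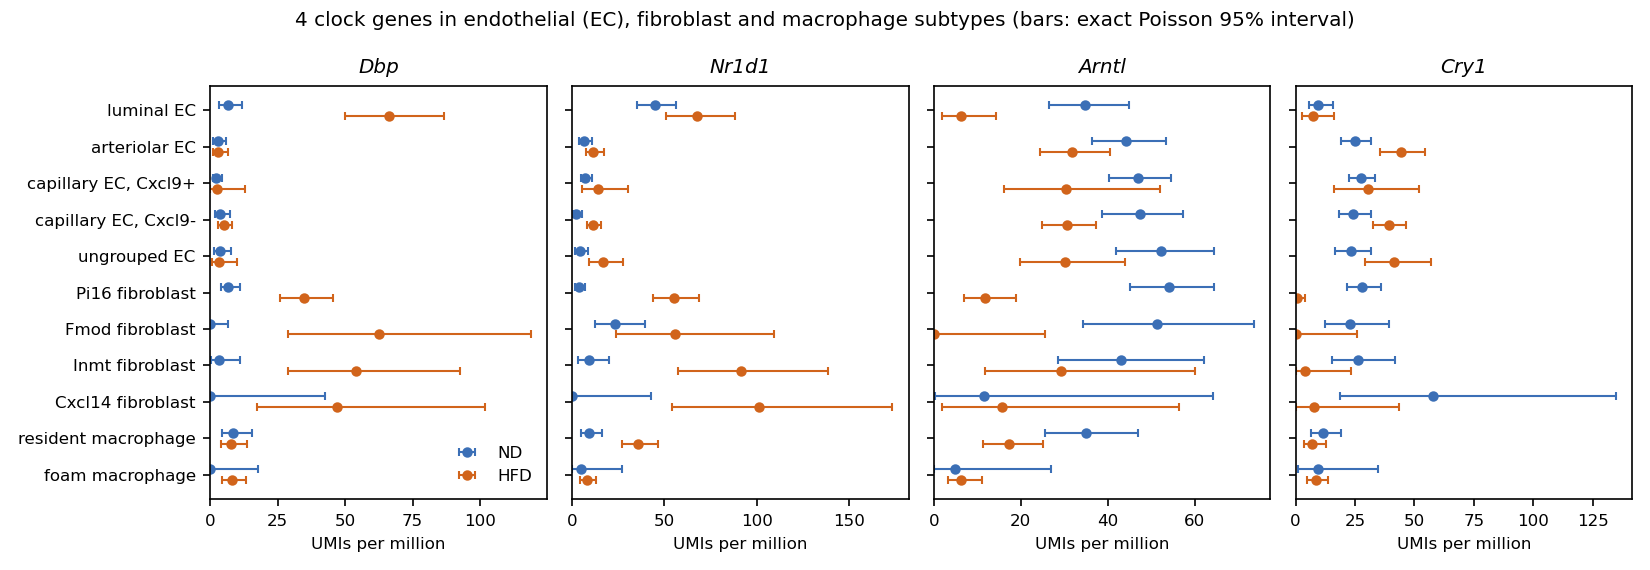
Levels of Dbp, Nr1d1, Arntl and Cry1 in CPM (horizontal axes, from 0) in 5 endothelial gates, 4 fibroblast gates and 2 macrophage gates of the ND (blue) and HFD (orange) libraries, with exact Poisson 95% intervals. Among endothelial gates, Dbp in HFD is high in luminal cells at 66.4 CPM, and Arntl there is low at 6.15 CPM.

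Several measures of the luminal cells moved with the library. Markers of fibroblasts summed to 507 CPM in ND and 849 CPM in HFD luminal cells with all 8 markers detected in each, against 20171 CPM in HFD fibroblasts. Dbp was at 66.4 CPM in HFD luminal cells and 40.1 CPM in HFD fibroblasts. The 4 haemoglobin genes summed to 93.7 CPM in ND and 5686 CPM in HFD luminal cells, and the share of cells among the highest doublet scores was 10.3% and 4.30%. Without those cells the log2 ratio of Dbp in luminal cells was 3.35, without barcodes rich in haemoglobin 3.28, and with endothelial cells gated by Cytl1 alone 3.38, against 3.33. RNA released from broken cells is a further source of counts in droplets. In the HFD library the immune cells other than macrophages held 2 Dbp UMIs (2.97 CPM, 0.359 to 10.7) and 4 Nr1d1 UMIs (5.94 CPM), and Dbp in HFD fibroblasts and luminal cells lay above that level without overlap of the intervals. Dbp in the other HFD endothelial cells, 4.08 CPM (2.69 to 5.94), and in HFD macrophages, 7.48 CPM (4.97 to 10.8), was not separated from it. Cells without a class carried 100 of the 301 Dbp UMIs of HFD, at 31.6 CPM against 3.75 CPM in ND. They held both endothelial markers, at 3205 CPM in ND and 3834 CPM in HFD, and fibroblast markers, at 1833 and 2459 CPM. Of these cells 21.8% in ND and 20.5% in HFD were among the highest doublet scores. Of the 10 genes in them 2 were higher and 2 lower, beside 3.23% and 7.16% of 12273 genes. The part of free RNA and of mixed barcodes in these values was not tested.

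Macrophages differed in fewer of the genes than fibroblasts did. Of the 8 genes with enough UMIs, 1 was higher (Nr1d1) and 2 were lower (Arntl and Per2), beside 4.75% and 6.61% of 9628 genes. Nr1d1 gave 16 UMIs in ND (8.99 CPM) and 76 in HFD (20.3 CPM), a ratio of 2.26 (1.30 to 4.15). Arntl gave 49 and 40 UMIs, a ratio of 0.388 (0.249 to 0.601), and Per2 gave 29 and 17, a ratio of 0.279 (0.144 to 0.524). Dbp was at 6.74 CPM in ND and 7.48 CPM in HFD on 12 and 28 UMIs, and its ratio of 1.11 (0.546 to 2.39) lay below the fibroblast ratio without overlap of the intervals. Nr1d2 had a ratio of 0.779 (0.506 to 1.21), also below that of fibroblasts. Foam-type macrophages, gated by Gpnmb, Trem2 and Spp1, were 26 in ND and 194 in HFD, so resident macrophages, gated by Lyve1, Folr2, Cd163 and F13a1, were also compared alone. In the 263 ND and 275 HFD resident cells Nr1d1 gave 12 and 56 UMIs, a ratio of 3.85 (2.04 to 7.89), Per2 25 and 5, a ratio of 0.165 (0.0493 to 0.439), and Arntl 45 and 27, a ratio of 0.495 (0.295 to 0.815). That was 1 of 8 genes higher and 2 lower, beside 2.74% and 4.81% of 8261 genes. Dbp remained at 11 and 12 UMIs. Within the HFD library Nr1d1 was at 36.0 CPM (27.2 to 46.7) in resident and 7.96 CPM (4.45 to 13.1) in foam-type macrophages.

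Lymphocytes carried some clock genes and not others. In ND, where B cells were numerous, Clock stood at 41.8 CPM (32.3 to 53.2), Nr1d2 at 31.7 CPM (23.5 to 41.8), Arntl at 31.0 CPM (23.0 to 41.0) and Cry1 at 11.4 CPM (6.76 to 18.0). Npas2 gave 0 UMIs of 1578153 in these B cells, which allows up to 1.90 CPM, against 35.7 CPM in ND fibroblasts. Dbp, Nr1d1, Per2 and Per3 gave 2 to 6 UMIs each. T cells of ND had Nr1d2 at 44.8 CPM (29.8 to 64.7), Arntl at 65.6 CPM (47.1 to 89.0) and Per1 at 181 CPM (149 to 217), with no Per2 UMI. The 24 HFD T cells gave 3 Arntl UMIs and 1 Nr1d2 UMI, ratios of 0.312 (0.0619 to 0.979) and 0.152 (0.00373 to 0.922). Among T cell barcodes over the mitochondrial limit, 97 in ND and 318 in HFD, Arntl gave 16 and 43 UMIs, a ratio of 0.903 (0.498 to 1.72), so a lower Arntl level was not seen there, and Nr1d2 gave 13 and 15, a ratio of 0.388 (0.172 to 0.885). Of the 3 genes with enough UMIs in T cells 0 were higher and 2 lower, beside 10.6% and 15.4% of 4364 genes. The 6 HFD B cells gave 3 UMIs of the clock genes in all, too few for a comparison. Among unconventional T cells of ND, gated by Cd163l1, Trdc and related genes, Arntl was at 86.2 CPM on 11 UMIs and Nr1d2 at 78.4 CPM on 10.

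A ratio of UMI sums within a library avoids the scaling between libraries. The summed UMIs of Dbp, Nr1d1, Nr1d2, Per1, Per2 and Per3, targets of the activating pair, were divided by those of Arntl, Npas2, Clock and Cry1. Cry1 is also a target of the pair, so its place in the second sum was a choice. It held 267 of the 1012 UMIs of that sum in HFD endothelial cells other than luminal ones. No quotient without Cry1 was formed. In fibroblasts the quotient was 0.733 (0.661 to 0.813) in ND and 3.52 (2.96 to 4.21) in HFD. In luminal endothelial cells it was 1.53 (1.28 to 1.84) and 7.11 (5.05 to 10.3). In other endothelial cells it was lower in HFD, at 1.60 (1.5 to 1.69) in ND and 1.23 (1.13 to 1.33) in HFD, but without Per1 in the first sum it was higher, at 0.330 (0.300 to 0.363) and 0.409 (0.364 to 0.459). In macrophages it was 2.44 (2.0 to 2.99) and 2.46 (2.09 to 2.91), and in the remaining immune cells 2.10 (1.79 to 2.46) and 3.03 (2.03 to 4.64). Per1 held 4062 of the 5741 UMIs of the first sum over all ND cells, so the quotient was also formed with Dbp, Nr1d1 and Nr1d2 alone, a choice made after the values were seen. It was then 0.111 (0.0888 to 0.137) in ND and 2.19 (1.82 to 2.64) in HFD fibroblasts, and 0.717 (0.576 to 0.891) and 4.66 (3.27 to 6.80) in luminal cells. In other endothelial cells it was 0.132 (0.114 to 0.151) and 0.330 (0.291 to 0.374), in macrophages 0.454 (0.332 to 0.614) and 0.791 (0.640 to 0.976). In the remaining immune cells it was 0.422 (0.331 to 0.535) and 0.424 (0.210 to 0.815).

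**Figure D4:**
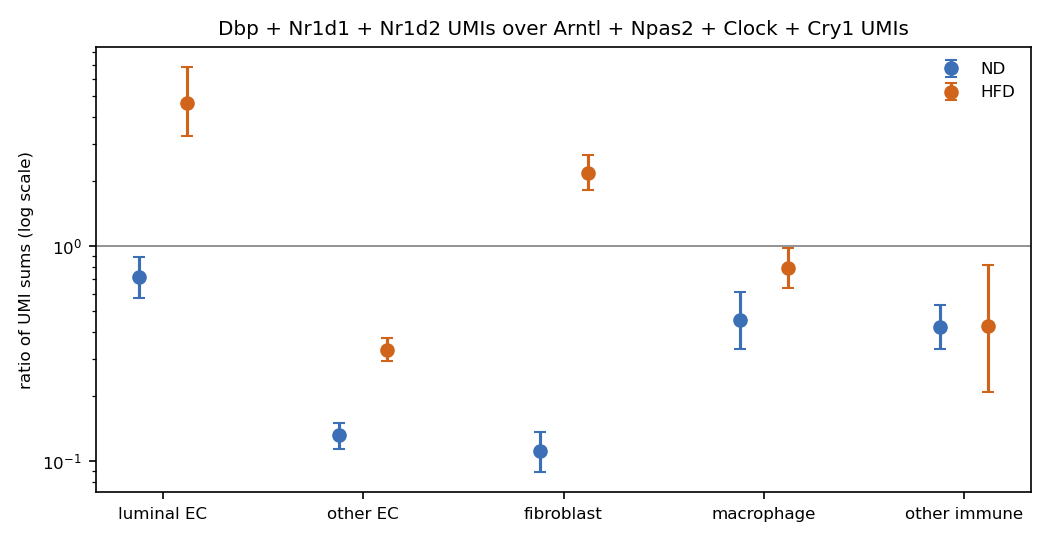
Summed UMIs of Dbp, Nr1d1 and Nr1d2 divided by summed UMIs of Arntl, Npas2, Clock and Cry1 (vertical axis, log scale) in 5 populations of the ND (blue) and HFD (orange) libraries, with exact 95% intervals. The quotient passes 1 in HFD luminal endothelial cells (4.66) and HFD fibroblasts (2.19) and stays below 1 in every other point plotted.

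Over all kept cells, Dbp was 4.53-fold (3.61 to 5.71) and Nr1d1 2.25-fold (1.96 to 2.59) the ND level, and Npas2, Per2 and Arntl had ratios of 0.194 (0.137 to 0.269), 0.388 (0.315 to 0.475) and 0.463 (0.409 to 0.524). These were 2 genes higher and 3 lower, beside 2.68% and 12.4% of 15101 genes. Cry1, which differed in opposite directions by cell type, had a ratio over all cells of 1.05 (0.917 to 1.2). The mix of cell classes also differed between the libraries, and the part of either in this ratio was not tested. The median log2 ratio of all genes was -0.19 in endothelial cells, -0.17 in fibroblasts and -0.10 in macrophages.

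Further genes of the loop were compared in the same way. In endothelial cells 14 of 15 such genes had enough UMIs. Of these, 1 was higher and 1 lower, beside 1.88% and 8.94% of all genes with enough UMIs. The higher one was Bhlhe41, a repressor that competes at E-boxes, at 2.49 (1.0 to 6.51) on 9 and 14 UMIs. Arntl2, a paralogue of Arntl, was at 1.67 (0.878 to 3.2), and 10 others (Cry2, Ciart, Bhlhe40, Nfil3, Rora, Timeless, Csnk1d, Csnk1e, Fbxl21 and Btrc) lay between 0.719 and 1.11. In fibroblasts 2 of 12 were higher and 1 lower, beside 2.01% and 7.63% of all genes with enough UMIs. Bhlhe41 was the lower one there, at 0.378 (0.207 to 0.650), and the higher ones were Timeless at 4.85 (2.40 to 10.4), on 12 and 29 UMIs, and Arntl2 at 2.10 (1.10 to 4.02). In macrophages Bhlhe41 and its relative Bhlhe40 were higher, at 2.85 (1.74 to 4.91) and 2.25 (1.81 to 2.81). Ciart, a repressor of the activating pair, was lower there at 0.433 (0.292 to 0.643). That made 2 of 11 higher and 1 lower, beside 4.75% and 6.61% of all genes with enough UMIs. In T cells 0 of 6 were higher and 3 lower, beside 10.6% and 15.4% of all genes with enough UMIs.

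Of the PAR bZIP and output genes, those known to follow the clock in other tissues, none of 10 in endothelial cells was higher and 2 were lower. The shares of all genes with enough UMIs were 1.88% and 8.94%. Wee1, a kinase that holds back entry into mitosis, gave 438 and 94 UMIs, a ratio of 0.343 (0.271 to 0.429), and Lonrf3 25 and 7, a ratio of 0.447 (0.163 to 1.06). Hlf, Tef, Usp2, Nampt, Tspan4, Leo1, Tmem57 and Pnpla2 lay between 0.769 and 1.30 there. In fibroblasts Dbp's paralogues did not share its ratio. Tef gave 118 and 77 UMIs, a ratio of 1.31 (0.970 to 1.76). Hlf gave 142 and 34, a ratio of 0.481 (0.320 to 0.703). It was the 1 lower gene of 9 with 0 higher, beside 7.63% and 2.01% of all genes with enough UMIs. In macrophages Usp2, a deubiquitinase, was lower at 0.269 (0.125 to 0.553). It was the 1 lower gene of 8 with 0 higher, beside 6.61% and 4.75% of all genes with enough UMIs. In T cells both genes with enough UMIs were lower, beside 15.4% of all genes with enough UMIs. Nampt was at 0.171 (0.00416 to 1.04) on 25 and 1 UMIs and Pnpla2 at 0.461 (0.119 to 1.28) on 37 and 4.

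Genes induced by glucocorticoids, by dissociation and by temperature were counted because such signals also act on clock genes. In endothelial cells 0 of 10, 0 of 13 and 0 of 10 of them were higher and 1, 0 and 1 lower. In fibroblasts 0 of 10, 0 of 13 and 0 of 10 were higher and 1, 0 and 1 lower. In macrophages none was higher and 4, 3 and 2 were lower. In T cells, with 8, 13 and 7 of them having enough UMIs, 1, 1 and 0 were higher and 2, 7 and 0 lower. Of all genes with enough UMIs, 1.88% were higher and 8.94% lower in endothelial cells, and 2.01% and 7.63% in fibroblasts. The shares were 4.75% and 6.61% in macrophages and 10.6% and 15.4% in T cells. The median log2 ratio of the immediate early genes was -0.27 in endothelial cells, -0.51 in fibroblasts and -0.84 in macrophages. The part of these signals in the clock gene values was not tested.

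By the measure of likeness used, Pearson's r of log2(CPM + 10) over 21 points of cell class and library, the genes most like Dbp among 10233 were Kcnj8 (0.90), Pomt1 (0.90), Tfcp2 (0.88), Exoc8 (0.87) and 5730409E04Rik (0.87). The points share libraries and several hold few cells, so r is a description. Among them, the 7 HFD pericytes, held 5 Dbp UMIs (212 CPM, 68.8 to 494), and Kcnj8 is a marker by which pericytes were gated. Among the clock genes the r with Dbp was 0.63 for Nr1d1, 0.53 for Nr1d2, -0.19 for Arntl and -0.24 for Cry1. Of 4035 genes with enough UMIs in endothelial cells, fibroblasts, macrophages and T cells, 781 were lower in HFD in all 4. Arntl took place 10 among them by its smallest difference, a log2 ratio of -0.70 in endothelial cells, which is short of 2-fold. The T cell difference of Arntl rests on 3 HFD UMIs and was not seen in the T cell barcodes over the mitochondrial limit. The 9 genes ahead of Arntl were Scgb1a1, Bpifa1, Insig1, Igtp, Bcl6, Gem, Sesn3, Gm10076 and Ppm1d. Per1 took place 95, and Nr1d2 was the only other member with enough UMIs in T cells. Scgb1a1 and Bpifa1 are genes of airway epithelium. Among the 10 genes that led in the higher direction were Alas2, Hbb-bt, Hba-a1, Hba-a2, Hbb-bs, Ctss, Lgals3, Nhp2 and Nudcd2, the haemoglobin genes among them. A ranking over the 3 classes without T cells was a choice made after the values were seen. In it Per2 took place 9, Arntl 72, Per1 455 and Clock 1073 of 2739 lower genes. Nr1d1 took place 23 and Dbp 279 of 658 higher ones.

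Barcodes left out for more than 30% mitochondrial UMIs were 2299 in ND and 7215 in HFD. Apart from the T cell barcodes already described, no value above used their counts. With mitochondrial UMIs taken out of the totals, Dbp gave 2 UMIs in ND and 56 in HFD in barcodes of the fibroblast class, a ratio of 8.11 (2.14 to 68.6). Nr1d2 gave 2 and 85 there, a ratio of 12.3 (3.31 to 103), and Arntl 11 and 10, a ratio of 0.263 (0.100 to 0.683). In the endothelial class Nr1d2 gave 10 and 280 UMIs, a ratio of 4.53 (2.43 to 9.55), Npas2 10 and 6, a ratio of 0.0971 (0.0290 to 0.295), and Per2 32 and 47, a ratio of 0.238 (0.148 to 0.385). Cry1 was not higher there, at 1.04 (0.737 to 1.52). The ND counts of fibroblasts in these barcodes are small, and Per2 in them, with 3 and 18 UMIs, had a ratio of 1.74 (0.508 to 9.21) where kept fibroblasts had a lower level in HFD. In the macrophage class, with 105 ND and 465 HFD barcodes, Nr1d1 gave 5 and 13 UMIs, a ratio of 0.412 (0.138 to 1.48), and Arntl 1 and 11, a ratio of 1.74 (0.253 to 75), both on the other side of 1 from kept macrophages with intervals that include 1.

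**Figure D5:**
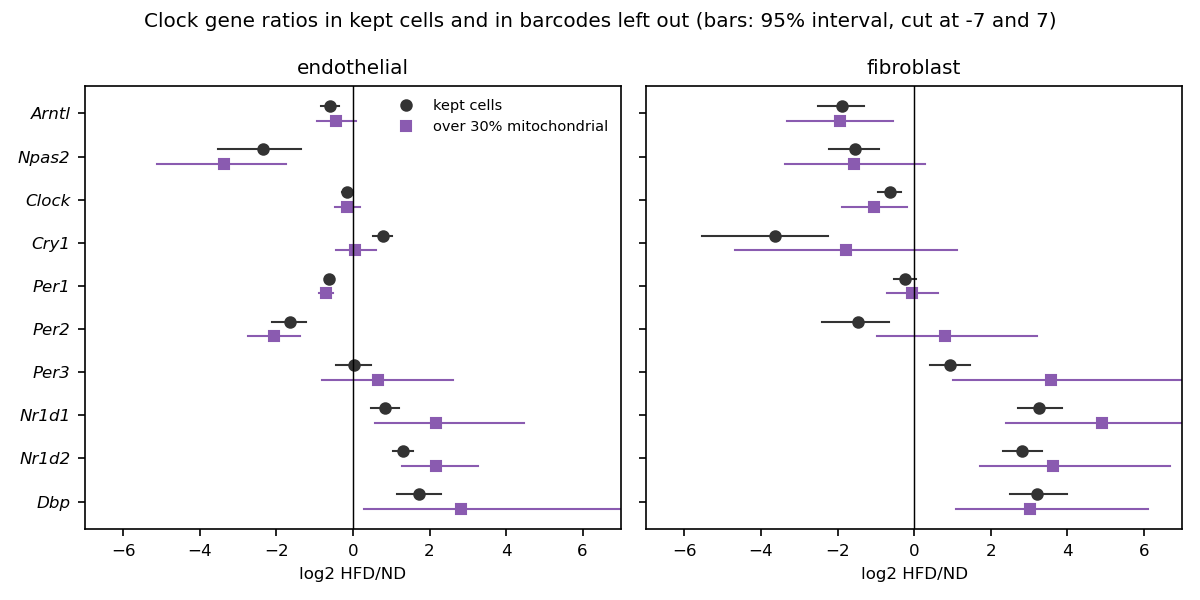
HFD/ND ratio on the log2 scale (horizontal axes) of the 10 clock genes in kept cells (circles) and in barcodes over the mitochondrial limit (squares), for the endothelial and fibroblast classes, with mitochondrial UMIs out of the totals and 95% intervals cut at -7 and 7. Dbp, Nr1d1 and Nr1d2 lie above 0 in both sets of barcodes and both classes, and Npas2 and Arntl below 0. Over the limit, the intervals of Arntl in the endothelial class and of Npas2 in fibroblasts include 0. Dbp in the endothelial class and Nr1d1 in fibroblasts rest there on 1 ND UMI each.

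By their place in the genome (GRCm38), Dbp is at chr7:45705088-45710203 on the plus strand and overlaps Sphk2 on the opposite strand. Nr1d1, at chr11:98767932-98775333 on the minus strand, overlaps Thra, the thyroid hormone receptor alpha gene, on the opposite strand. Thra went the other way from Nr1d1, with 1367 and 367 UMIs in endothelial cells, a ratio of 0.429 (0.381 to 0.482), and 0.702 (0.601 to 0.818) in fibroblasts. Per3, at chr4:151003652-151044665 on the minus strand, overlaps Camta1 on the same strand, so reads that lie in both cannot be assigned. Arntl lies at chr7:113207465-113314126 on the plus strand and Cry1 at chr10:85131700-85185064 on the minus strand.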

How the data were processed

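Aortic cells of both pools were captured on the 10x platform, and the authors deposited counts of UMIs per gene and barcode, made with Cell Ranger (version 3.0.1 per the file headers) on mm10. Further counting settings are not stated. A combined table of both libraries was not used. Barcodes over 30% mitochondrial UMIs, or under 200 UMIs or 200 genes, were left out, which gave the cell numbers the labels state (5416 and 2739). A cell took the class with most marker UMIs if it had at least 3 from at least 2 genes and they made up at least 75% of its marker UMIs. Related classes were counted together for that share. Luminal cells needed at least 4 UMIs of Cytl1, Vcam1 and Vwf from at least 2 genes and more of them than of capillary markers, and other subtypes were gated by UMIs of their own markers. Counts were summed per class and library and divided by the total. Intervals at the 95% level were Poisson for levels and conditional binomial for ratios. Those of ratios were checked on data simulated from the Poisson model that they assume. That check tests the calculation and cannot show whether the model fits these counts. A count of 0 was limited by 3 UMIs. Doublet scores came from Scrublet (scanpy 1.11.5), whose own threshold called 0 and 1 cells, so the top 6% were removed as an alternative. The libraries shared 39 barcodes, 1 of them kept in both. Python 3.11.15, numpy 2.4.6 and scipy 1.17.1 were used. The members, gene lists and marker lists were chosen with earlier results of these data known. Genes named in the text were the members, the listed loop and output genes with at least 20 UMIs in endothelial cells, the 5 genes most like Dbp and the 10 leading genes in each shared direction. Timeless, Arntl2 and Bhlhe41 in fibroblasts, and the genes named in macrophages, belong to those lists. Scaling, gates, filters, doublets and weighting were varied. Some genes of these lists are not reported here.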

Additional observations from a re-analysis of the deposited data

Results flagged for a closer look

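Cry1 was flagged because it ran in opposite directions in endothelial cells and fibroblasts, with an HFD/ND ratio of 1.61 in endothelial cells and 0.0737 in fibroblasts. With 1 library per diet the difference between these ratios was not tested beyond their counting intervals, which do not overlap. The fibroblast ratio rests on 4 HFD UMIs. In barcodes over the mitochondrial limit the Cry1 ratio was 1.04 (0.737 to 1.52) in the endothelial class. In the fibroblast class it was 0.290 (0.0388 to 2.16) on 3 and 3 UMIs, and these intervals overlap.

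Barcodes left out for their mitochondrial share were flagged because clock gene counts in them, which the main comparison does not use, also differed between the libraries. Over all such barcodes the HFD/ND ratio was 3.04 for Dbp, 3.50 for Nr1d1, 2.27 for Nr1d2 and 3.03 for Per3, each with an interval above 1. The flag picked higher genes only. Npas2 at 0.126, Per2 at 0.510, Arntl at 0.682 and Per1 at 0.717 had intervals below 1 in the same barcodes.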

How the results depend on the processing

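Under the alternatives, 60 log2 ratios, 17 counts, 3 levels and 27 ratios of sums moved beyond the main interval or by over 1.5 times, and 473, 115, 57 and 21 did not. No gene past 2-fold in kept cells changed sign under the settings for kept cells. The ratio of sums in endothelial cells, lower in HFD with all 6 genes, was higher without Per1 and with 3 genes, and in barcodes over the mitochondrial limit Per2 in fibroblasts (1.74) and Nr1d1 (0.412) and Arntl (1.74) in macrophages lay on the other side of 1. At most 20% mitochondrial UMIs moved 5 log2 ratios, median-of-ratios scaling 4 and totals without mitochondrial, haemoglobin and ribosomal protein genes 2, all of them over all cells or of Per1 and Clock. The main values that moved are given below, and the cause was not tested unless fewer cells or UMIs are named. At most 10% mitochondrial UMIs left 383 ND and 50 HFD endothelial cells (24.0% and 42.0% luminal) and 160 and 10 fibroblasts. There the log2 ratio was 3.34 for Dbp, 1.38 for Nr1d1, 1.06 for Per3 and -1.47 for Arntl in endothelial cells, and 2.01 for Dbp, 4.04 for Nr1d1 and -2.67 for Arntl in fibroblasts. The number of genes higher was then 4 in endothelial cells, 0 in fibroblasts and 0 in macrophages, with 1 lower in macrophages, and the ratio of sums 2.33 in HFD endothelial cells, 0.658 and 4.75 in ND and HFD fibroblasts and 1.2 in HFD macrophages. Thinning each cell to 1000 UMIs, which leaves fewer counts, gave 2.23 for Dbp in endothelial cells and 5.08 in fibroblasts, counts of 1 higher and 0 lower in endothelial cells, 0 and 0 in macrophages and 0 and 0 in luminal cells, and ratios of sums of 3.23 in ND macrophages and 1.02 in ND luminal cells. Without Per1 in the first sum the ratio, in ND and HFD in turn, was 0.391 and 0.596 in endothelial cells, 0.286 and 2.63 in fibroblasts, 0.681 and 0.917 in macrophages, and 0.912 in ND luminal cells. With Dbp, Nr1d1 and Nr1d2 alone it was 0.193 and 0.487, 0.111 and 2.19, 0.454 and 0.791, and 0.717 and 4.66 in luminal cells. These choices of genes, and the luminal cells as a population, were added after seeing the data. Subtypes weighted equally moved 12 further log2 ratios, among them Cry1 over all cells to -0.62 (-0.16 at 20% mitochondrial UMIs, 0.07 in the report's setting), and gave -1.06 for Arntl in endothelial cells, 4.18 for Dbp in fibroblasts and 1 gene lower in macrophages, and cells weighted equally 1.30 for Nr1d1 in endothelial cells. At 1.5-fold 4 genes were higher and 4 lower in endothelial cells and 5 higher in luminal cells. Without a minimum of UMIs 2 genes were higher in macrophages, and at 50 UMIs 1 was lower in macrophages and 1 in luminal cells. The shares of all genes higher or lower were counted in the main setting only. The numbers of genes under the other settings therefore have no background beside them. In barcodes over 30% mitochondrial UMIs the ratio of sums was 1.90 and 1.69 in ND and HFD endothelial cells, 0.878 and 7.15 in fibroblasts, 3.79 in HFD macrophages and 1.0 in ND luminal cells.

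No paired analysis was possible because each diet has 1 library. Depth limits several ratios: Dbp rests on 11 UMIs in ND luminal cells, Arntl on 5 and Npas2 on 1 in HFD luminal cells, Cry1 on 4 in HFD fibroblasts and Arntl on 3 in HFD T cells. Intervals cover counting error within these libraries and say nothing about mice.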
